A study of Mus musculus with 2 samples.

Results

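Antibody variable segments were described in mouse spleen RNA through the 45 probe sets, of 12422 that are not controls, whose platform annotation names at least 1 heavy, kappa or lambda V segment. They were chosen by gene symbol (Ighv, Igh-V, Igkv, Igk-V or Iglv) and not by signal. Of these probe sets, 11 named heavy chain segments, 33 named kappa segments and 1 named a lambda segment. Both arrays were hybridised with total RNA of spleen bought from a supplier, and the labels name no treatment, genotype, strain, age or number of animals. The arrays therefore form 1 group of 2, here called array 1 and array 2, with no contrast and no p-value. Nothing in the labels says that they came from separate animals, so the spread between them may be technical.

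An antibody is built from heavy chains and light chains, and the light chain is either kappa or lambda. In each developing B cell, 1 V segment is joined to a J segment (and, in the heavy chain, to a D segment between them), and the joined exon is spliced to a constant region. The V segment supplies most of the antigen-binding surface, so the V transcripts of a spleen come from a mixture of B cells and plasma cells that each chose their own segments. Segments are grouped into families by similarity of sequence, and members of a family can be close enough for a probe to read several of them. In whole-tissue RNA, fewer cells using a segment and less RNA per cell cannot be told apart.

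The probe sets named 28 distinct V segments, 7 of the heavy locus, 20 of the kappa locus and 1 of the lambda locus. By gene identifier, 27 of them were found among the V entries of RefSeq's annotation of the mouse assembly GRCm38.p6, with 0 as pseudogenes. Only V entries were searched, so the match does not test the label. The exception was Igh-VS107, an older symbol that carries no family number. That annotation lists 183 heavy, 162 kappa and 3 lambda V segments, of which 63 heavy and 60 kappa entries are pseudogenes. The probe sets thus name a small part of each large locus. How much of each locus their probes read is not known, since a probe can read several segments of a family. Counted outward from the J segments, the named kappa segments lay between position 15 and position 160 of 162, and when the positions are split into 3 equal stretches, 5 lay in the near one, 6 in the middle one and 9 in the far one. The 6 heavy segments with a position lay between 18 and 165 of 183, with 3 in the near stretch, 0 in the middle one and 3 in the far one. Named segments thus lay in the near and far stretches of both loci, whereas none lay in the middle stretch of the heavy locus.

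Most probe sets for V segments were bright on both arrays, by a rule that compares each probe set with all others of its array. Here a probe set is bright when each array placed it above that array's 60th percentile, an intensity of 346.32 for array 1 and 342.22 for array 2. By this rule 38 of 45 were bright (84.4%), against 37.9% of all 12422 probe sets. On each array 15 bacterial control probe sets, which have no mouse target, show the background, and 42 of 45 V probe sets exceeded the highest of them on both arrays, against 65.5% of all. Their median log2 signal was 11.72, against 7.80 over all probe sets. Above the 90th percentile of both arrays lay 32 of 45, against 9.27% of all probe sets, above the 95th lay 25 of 45, against 4.73%, and above the 99th lay 8 of 45, against 0.974%. All 8 of these named kappa segments, as did 33 of the 45 probe sets. They include the 5 that also name the kappa constant gene Igkc. The others were 102156_f_at, 101718_f_at and 94725_f_at, whose suffix marks probes that read a family of similar sequences. Brightness also varies with the probes themselves, so values of different probe sets are given side by side and do not order the segments by abundance.

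**Figure D1:**
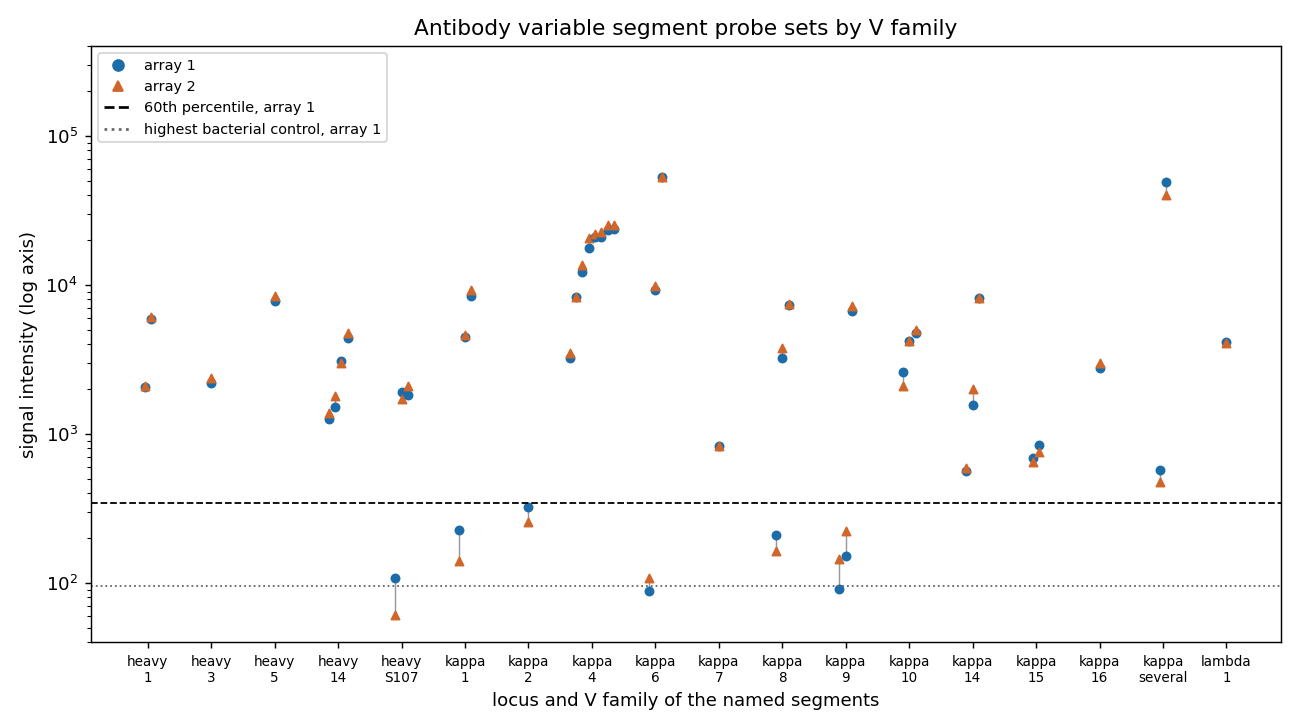
Signal intensity (log axis) of each of the 45 probe sets on array 1 (circles) and array 2 (triangles), joined by a line and grouped by locus and V family; S107 stands for Igh-VS107 and "several" for probe sets that name segments of different families. The dashed line is the 60th percentile and the dotted line the highest bacterial control, both of array 1; 38 probe sets lie above the dashed line on both arrays, and all 8 of kappa family 4 are among them.

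In the heavy chain locus 10 of 11 probe sets were bright. Their intensities spanned 108.6 to 7803.2 on the first array and 60.7 to 8371.7 on the second. Family 5 was represented by Ighv5-12 (98765_f_at), at 7803.2 on array 1 and 8371.7 on array 2. Family 1, the largest heavy family of the mouse, had Ighv1-54 (97563_f_at) at 5903.8 and 6074.0. Its other probe set, 92470_f_at, which names Ighv1-53, Ighv1-72 and the IgM constant gene Ighm, gave 2076.4 and 2083.3. The single family 3 segment, Ighv3-6 (96970_at), gave 2206.3 and 2354.3. These segments were thus well above the brightness cutoff on each array.

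Family 14 held 4 probe sets, all of which name Ighv14-2 and all of which were bright. Probe set 92740_at gave 4385.8 and 4761.1, and 92741_g_at gave 3089.5 and 3004.0. The others were 98974_at at 1514.1 and 1786.3 and 99421_at, which also names the constant genes Ighg3, Igha and Ighm, at 1265.6 and 1375.4. The first 2 were designed from the same GenBank record, and another probe set of that record, 100583_at, is annotated to the IgA constant gene Igha, at 6699.6 and 6917.5. A V name and a C name were therefore given to parts of 1 source sequence. For Igh-VS107, 102152_f_at gave 1914.5 and 1716.2 and 97720_at gave 1830.7 and 2092.9, whereas 98776_at gave 108.6 and 60.7. The last was the only heavy chain probe set that was not bright, and on array 2 it lay below the highest bacterial control.

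In the kappa locus 27 of 33 probe sets were bright, with intensities of 88.7 to 52821.3 on the first array and 107.6 to 52855.5 on the second. Kappa chains are carried by most mouse antibodies. Leaving aside 2 probe sets that name segments of different families, the probe sets fell into 11 V families, and in 6 of these families every probe set was bright.

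Kappa family 4 had the most probe sets, 8, and all were bright. Its values ran from 3243.6 and 3488.6 for Igkv4-59 alone (101751_f_at) to 23680.1 and 25368.4 for 101640_f_at, which names Igkv4-59, Igkv4-72 and the kappa constant gene Igkc. Probe set 97567_f_at, which names Igkv4-59, Igkv4-70, Igkv4-72, Igkv4-68 and Igkc, gave 23268.8 and 25253.8. Igkv4-59, Igkv4-70 and Igkc together (102585_f_at) gave 20861.0 and 22648.3. In this family 5 of 8 probe sets name Igkv4-59, so they share a target and are not separate readings of the family. Segments that were named alone included Igkv4-70 (101718_f_at) at 21029.4 and 21976.6 and Igkv4-91 (94725_f_at) at 17708.2 and 20597.2. Igkv4-68 alone (102076_at), the family's only probe set without a suffix, gave 8268.0 and 8306.4.

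Family 6 held bright and dim probe sets. Igkv6-23 (102156_f_at) gave 52821.3 and 52855.5, and Igkv6-14 gave 9294.2 and 9817.8 with 101331_f_at but 88.7 and 107.6 with 97569_at. The last value lay below the highest bacterial control of array 1, which was 95, and above that of array 2, which was 76.2. Igkv6-23 is also among the names of 93086_at, beside Igkv4-53, Igkv8-30, the joining segment Igkj1 and Igkc. That probe set gave 49178.1 on array 1 and 40332.4 on array 2. The other probe set that names different families, 96964_at for Igkv6-14 and Igkv4-53, gave 573.6 and 479.5.

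Families 1, 8 and 9 were mixed as well. For family 1, Igkv1-133 (99405_at) gave 8438.9 and 9269.9, and Igkv1-117, which shares its probe set with the locus name Igk, gave 4442.5 and 4627.2 (96975_at). Igkv1-135 (101348_at), at 227.9 and 140.9, was not bright. For family 8, Igkv8-19 (93227_f_at) gave 7347.9 and 7478.2 and Igkv8-30 gave 3250.3 and 3796.2 with 96963_s_at, but 211.5 and 163.4 with 96992_r_at. For family 9, all 3 probe sets name Igkv9-120, and 1 of 3 was bright.

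Families 10, 14, 15, 16 and 7 had bright probe sets only. The 3 probe sets of Igkv10-96 ran from 2610.2 and 2081.0 (99369_f_at) to 4723.7 and 4987.5 (102157_f_at). Those of Igkv14-111 ran from 568.1 and 589.2 (100683_r_at) to 8218.4 and 8174.1 (100682_f_at), a pair designed from 1 GenBank record. Igkv15-103 gave 838.8 and 758.1 with 101329_f_at and 691.2 and 645.6 with 101330_f_at. Igkv16-104, named with Igk (101616_at), gave 2776.8 and 2978.7, and Igkv7-33 (97570_at) gave 829.6 and 834.5. Family 2 had 1 probe set, Igkv2-112 (96969_at), which at 322.0 and 257.0 was not bright. It was the nearest to the cutoff of those outside it on both arrays. Of those inside, 100683_r_at was the nearest on array 1 and 96964_at on array 2. No probe set was on different sides of the cutoff on the 2 arrays.

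The lambda locus, which in the mouse has few V segments, was represented by 93638_s_at, which names Iglv1 together with the constant gene Iglc1. It gave 4149.8 on array 1 and 4049.5 on array 2 and was bright. Another probe set, 93639_r_at, names Iglc1 without a V segment and gave 164.0 and 34.8. With 1 probe set for V, no spread within the lambda locus can be given.

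Probe sets that name the same single segment did not always lie on the same side of the brightness cutoff. Of 8 segments with at least 2 single-gene probe sets, 4 had only bright ones and 4 had both bright and dim ones. The mixed segments were Igh-VS107, Igkv6-14, Igkv8-30 and Igkv9-120. For Igkv9-120, 93904_f_at gave 6699.1 and 7197.3, whereas 101347_at gave 152.5 and 224.1 and 99396_at gave 91.4 and 144.5. The bright probe set of that segment carries the suffix _f_at, and both dim ones carry no suffix. Igh-VS107 differed in this: neither 97720_at, bright at 1830.7 and 2092.9, nor 98776_at, dim at 108.6 and 60.7, carries a suffix. Counting each segment by its single-gene probe set of highest mean log2 signal, 19 of 21 segments were bright, against 45.2% of 8251 genes counted the same way. The 2 exceptions were Igkv1-135 and Igkv2-112, each read by 1 probe set. The remaining 7 segments were named only beside other genes.

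**Figure D2:**
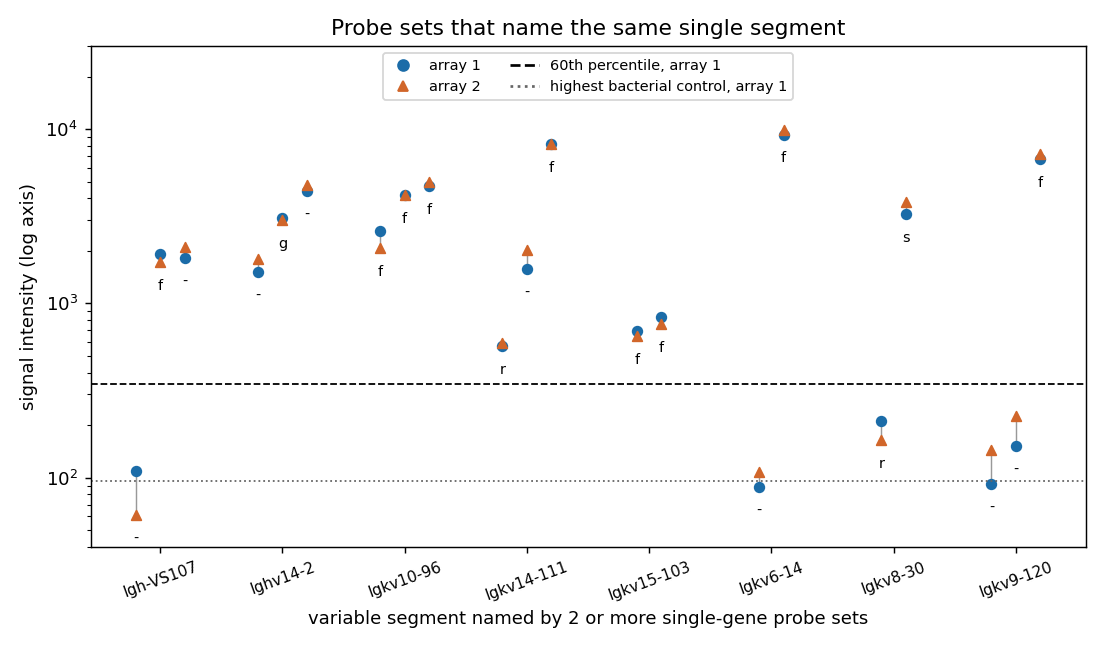
Signal intensity (log axis) on array 1 (circles) and array 2 (triangles) of the probe sets that name 1 segment alone, for the 8 segments with at least 2 of them; letters give the suffix of the probe set and a dash marks none. For Igkv9-120 the _f_at probe set lies at 6699.1 and 7197.3, and both probe sets without a suffix lie below the dashed line, the 60th percentile of array 1. For Igh-VS107, which has 97720_at and 98776_at without a suffix, the former lies above that line and the latter below it. The dotted line is the highest bacterial control of array 1.

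The design of the probe sets moved with these counts. On these arrays the suffix _f_at marks probes that read a family of similar sequences, _s_at probes shared by similar transcripts, _g_at a group of probes shared with another probe set, and _r_at relaxed rules of probe selection. All 21 V probe sets with _f_at were bright, against 37.2% of all _f_at probe sets. Taking every suffix together, 25 of 26 were bright, against 32.6% of all probe sets with a suffix. Without a suffix, 13 of 19 were bright, against 39.5% of all probe sets without one. In this last class the heavy locus had 5 of 6 bright and the kappa locus 8 of 13, and the median log2 signal was 10.68. Among V probe sets, the number of names moved with the counts too. All 10 that name a constant region or the locus beside a V segment were bright, against 37.9% of all probe sets. Of these, 8 name a constant region. The share among all 396 probe sets that name several genes was not computed. Of those that name 1 gene, 27 of 34 were bright, against 38.9% of all such probe sets. The 5 that name Igkc ran from 12161.6 to 49178.1 on array 1, the lowest being 97566_f_at for Igkv4-59 and Igkc at 12161.6 and 13662.2. How much of any V signal came from other segments of a family or from the constant region was not tested.

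T cell receptor V segments are assembled by the same joining reaction in another lineage, and served as a comparison. Of 13 probe sets that name such a segment, 3 were bright (23.1%), against 37.9% of all probe sets, and 8 exceeded the bacterial controls of both arrays, near the 65.5% of all that did. The bright ones were Trbv1 (93105_s_at) at 6368.7 and 5668.5 and Trav9d-3 with 97944_f_at, at 4154.7 and 3624.1, and with 97945_at, at 2771.1 and 3467.9. Without a suffix, 1 of 10 was bright, against 39.5% of all probe sets without one. Trbv1 and Trav9d-3 also had dim probe sets, among them 94726_at for Trbv1 at 222.0 and 242.5. Probe sets that name an antibody constant region and no V segment were bright in 19 of 29 cases (65.5%), against 37.9% of all probe sets. Most of the bright ones carry a suffix and most of the dim ones carry none, so this share moved with probe design as well. No test was run between these classes, since probe sets are not replicates.

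**Figure D3:**
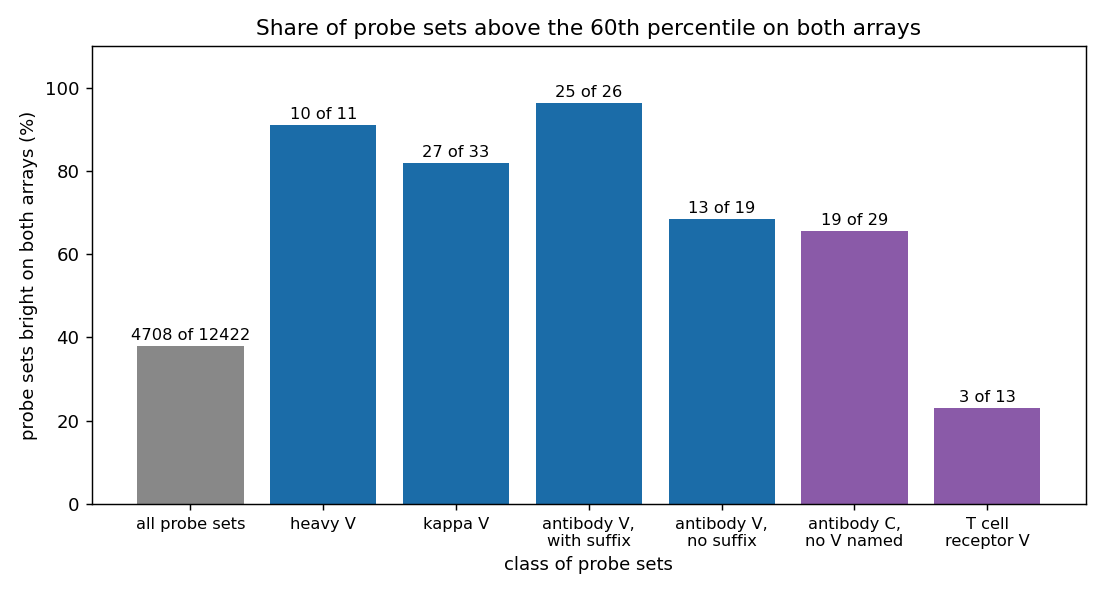
Percentage of probe sets above the 60th percentile on both arrays, with counts above each bar, for all probe sets (grey), antibody V probe sets by locus and by suffix (blue) and 2 comparison classes (purple). The heavy and kappa bars stand at 10 of 11 and 27 of 33, the T cell receptor V bar at 3 of 13; classes by locus and by suffix overlap.

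The arrays measured the bright V probe sets closely. The coefficient of variation of the 2 intensities had a median of 4.97% over the 38 bright probe sets, against 5.74% over all bright probe sets, and reached 17.6% at most. The pooled SD of the log2 signals, computed from the difference of the arrays in each probe set, was 0.105 for bright V probe sets and 0.152 for all 4708 bright ones. With the 75th percentile as the cutoff these were 0.101 and 0.128, and without suffixed probe sets 0.131 and 0.15. The 2 classes were not matched for intensity. None of the 38 differed by more than 1.5-fold. Of all bright probe sets only 1.51% did, a share at which few or none of 38 would be expected, so this count does not set them apart. For the 7 dim V probe sets the coefficient of variation ran from 13.6% to 40%.

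Differences between the arrays were taken on the log2 scale as array 2 minus array 1, less the median of all bright probe sets. The 5 bright V probe sets furthest apart were 96974_at for Igkv14-111, at 1565.3 and 2010.4 with a difference of 0.36, 99369_f_at for Igkv10-96 at -0.33, 93086_at at -0.28, 96964_at at -0.26 and 98974_at for Ighv14-2 at 0.24. Of the 38, 29 were higher on array 2, against 50% of all bright probe sets by centring, with a median difference of 0.07. With quantile normalization 24 were higher on array 2 and with loess normalization 25. All 8 probe sets of kappa family 4 were higher on array 2, with a median of 0.11 and a range from 0.01 to 0.22, but 6 of 8 were with quantile and 7 of 8 with loess normalization. These shifts are smaller than 1.5-fold, the probe sets share targets, and with 2 arrays they have no test.

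**Figure D4:**
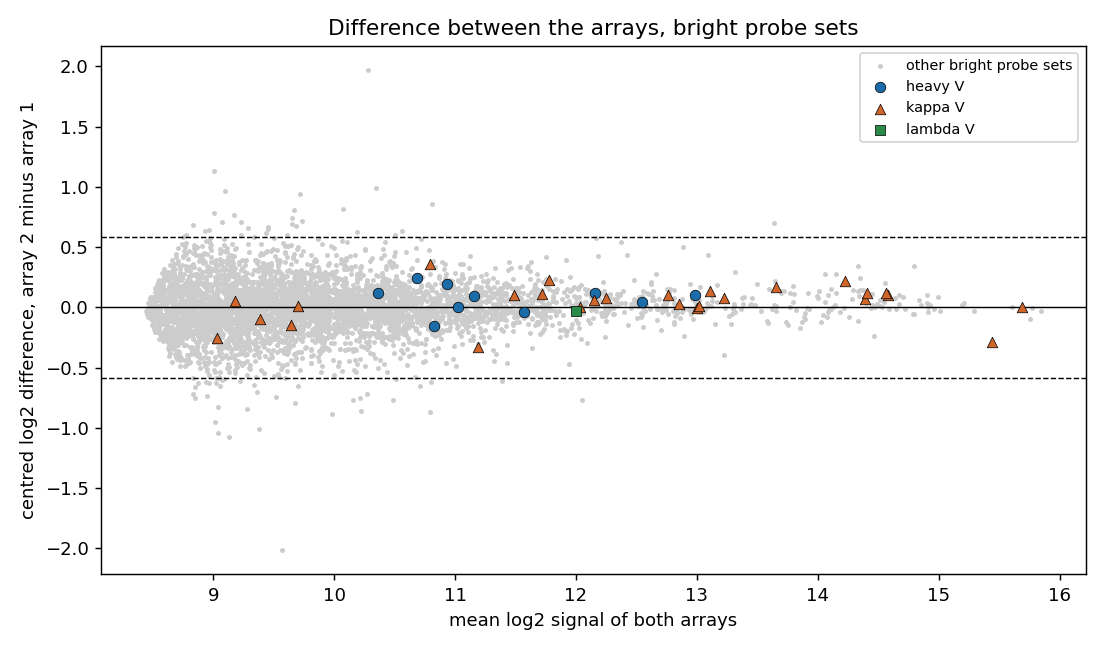
Centred log2 difference (array 2 minus array 1) against the mean log2 signal of both arrays for bright probe sets, with heavy (circles), kappa (triangles) and lambda (square) V probe sets over all others (grey). Dashed lines mark 1.5-fold. All 38 bright V probe sets lie between them, as do all but 1.51% of all bright probe sets, and 29 of the 38 lie above 0.

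Genes that act with V segments were read from lists, each gene by its single-gene probe set of highest mean log2 signal. Of all 8251 genes counted this way 45.2% were bright, and their median log2 signal was 8.29. Of 16 constant and partner chains 8 were measured and 7 were bright, with a median of 12.77. They included Ighd, the constant gene of IgD, at 625 ± 120 (SD, n = 2 arrays here and below), Ighg3 of IgG3 at 5681 ± 103 and Igha of IgA at 6809 ± 154. The probe set of Ighg3 carries the suffix _f_at. Further probe sets of Ighg3 or Igha alone were mostly bright, but 102723_at for Ighg3 gave 168.1 and 92.3. For Igha, 161486_f_at gave 191.9 and 169.2. Ighm gave 56115.7 and 55922.6 with 93583_s_at. Of 16 probe sets that name Ighm alone 9 were bright, against 37.9% of all probe sets. Iglc1, by its only single-gene probe set 93639_r_at, was not bright. Of 7 measured V(D)J joining genes 2 were bright, and the median was 7.85. They were Prkdc, the DNA-dependent protein kinase, at 353 ± 3.96 and Hmgb2 at 652 ± 26.0. Prkdc, at 356.2 and 350.6, was close to the cutoffs of 346.32 and 342.22, and Hmgb2 was read by a probe set with the suffix _r_at. The recombinase gene Rag2 gave 27.5 and 8.2, below the highest bacterial control of each array, and Rag1, by a probe set with the suffix _r_at, gave 137.4 and 389.7, which is above the cutoff on array 2 alone. Dntt, which adds bases at the joints, gave 214.0 and 114.9. Neither recombinase gene nor Dntt was thus bright on both arrays. Of the surrogate light chain genes, which pair with the heavy chain in precursor cells, 1 of 3 was bright, Vpreb3 at 383 ± 40.5, with a list median of 7.77.

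Factors that act on V promoters and kappa enhancers were bright in 10 of 13 cases, against 45.2% of all genes, with a median log2 signal of 9.76. Pou2af1, the coactivator of octamer-binding factors at antibody promoters, gave 1953 ± 82.7 and Pou2f2, an octamer-binding factor of lymphocytes, gave 592 ± 157. Pax5, the B lineage factor, gave 1507 ± 64.1 and Irf4, which acts at kappa enhancers, gave 871 ± 56.6. Rel at 9.6 and 30.7 was below the cutoff on both arrays. Tcf3 at 421.1 and 304.8 and Ebf1 at 418.4 and 322.7 were above the cutoff on array 1 alone, and so were not counted as bright. Of the hypermutation and class switching genes 2 of 4 were bright, near the 45.2% of all genes. Their median of 8.30 was near the 8.29 of all genes. The bright ones were the uracil glycosylase Ung at 862 ± 105, by a probe set with the suffix _r_at, and Apex1 at 717 ± 51.5.

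Markers of B cells, which carry V transcripts, were bright in 8 of 9 cases, against 45.2% of all genes, with summed intensities of 36521 on array 1 and 36587 on array 2. The exception was Cr2, by a probe set with the suffix _r_at, at 192.0 and 210.7. Cd79a, Cd79b and Pax5 were also counted in the lists above, as were the plasma cell markers Jchain and Irf4. Plasma cell markers were bright in 4 of 7 cases (57.1%), near the 45.2% of all genes. Their sums were 12151 and 12325, of which Jchain, the joining chain of IgM and IgA, made up 7657.3 and 7566.3. The plasma cell markers that were not bright were Sdc1 at 92.9 and 89.0, below the highest bacterial control of array 1, Prdm1 at 169.0 and 134.7 and Tnfrsf17 at 245.2 and 187.9. Other cells of the sample were also represented: T cell markers were bright in 6 of 6 cases, macrophage markers in 6 of 6, erythroid markers in 3 of 3 and acinar markers of the pancreas, which lies beside the spleen, in 6 of 6, with sums of 59008 and 60893. The part of plasma cells, B cells or neighbouring tissue in the V signal was not tested. Over all probe sets, median intensity was 226.65 on array 1 and 226.4 on array 2, and 2 arrays limit the precision of every value.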

How the data were processed

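Total RNA of mouse spleen was measured on 2 arrays of 12488 probe sets, per the labels and the deposited table. For every probe set the authors deposited a linear signal intensity on each array; for the software behind it, nothing is given in the sources used here. Trimmed means (2% at each end) of 500.265 and 500.278 show a common scaling before deposit. The 66 control probe sets (AFFX prefix) were left out of percentiles and counts. Intensities were raised to the 20th percentile of their array (41.8 on both) where lower, put on the log2 scale and not normalized further. Gene names came from the platform annotation, which names 1 gene for 10833 probe sets, several for 396 and none for 1193. RefSeq's GRCm38.p6 gene table served for names, biotypes and neighbour order alone, since the arrays name no genome build.

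The members and lists were chosen with earlier results of these data known. Named probe sets were the 5 highest and 3 lowest of the heavy and kappa loci, all of lambda, the highest and lowest of each V family, the sole member of a family, the 5 bright ones furthest apart between arrays, and any on both sides of the cutoff; others were named after their values were seen. The pooled SD was tested on simulated data. Alternatives changed 1 choice at a time: brightness cutoff, floor, pseudocount of 16, normalization, centring, each array alone, suffix, and number of names. Scripts ran under Python 3.11.15 with pandas 2.3.3 and numpy 2.4.6 for the statistics, statsmodels 0.14.6 for loess and matplotlib 3.10.9 for plots.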

Additional observations from a re-analysis of the deposited data

How the results depend on the processing

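Of 76 recomputed values, 63 stayed within 1.5 times the reported count or pooled SD or, for the median log2 signal, within 0.0743, the SD of the medians of both arrays. That limit comes from the same 2 medians, so those of array 1 alone (11.66) and array 2 alone (11.77) are no separate check, though counted here. Counts of V probe sets had little room to rise. Bright were 38 of 45, by locus 10 of 11 heavy, 27 of 33 kappa and 1 of 1 lambda, and 42 of 45 lay above the bacterial controls. A looser cutoff or a single array can only raise these counts. Such settings could not move them by 1.5 times and are no check either, though counted here. Without suffixed probe sets, 13 of 19 V probe sets were bright (5 of 6 heavy, 8 of 13 kappa), against 39.5% of all. Above the bacterial controls lay 16 of 19, against 68.0% of all. Of the bright ones 11 of 13 were higher on array 2, against 50.7% of all. The median log2 signal was 10.68, and fewer probe sets enter by construction. In that setting 1 of 10 T cell receptor V probe sets was bright, against the same 39.5% of all. With probe sets that name 1 gene the median was 11.38. With no brightness filter the pooled SD was 0.185 (0.317 over all probe sets) and 3 of 45 V probe sets were over 1.5-fold apart, against 13.5% of all; with the brightest bacterial control as the cutoff 1 of 42 was, against 7.21% of all. That cutoff made 8 of 13 T cell receptor V probe sets bright, against 65.5% of all, and the 50th percentile 5 of 13, against 47.3%. On each array alone 38 V probe sets were bright, while 43 on array 1 and 44 on array 2 lay above its bacterial controls. The lambda probe set could not be recomputed without suffixed or multiply named probe sets, since it is both. No paired analysis was possible because there is 1 group. Signal over background limits the dim probe sets: 3 of 45 were not above the bacterial controls on both arrays.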
